A study of Solanum lycopersicum with 9 samples.

Results

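Ammonium transporters are membrane proteins of the AMT family that carry ammonium across cell membranes. In plants they take up ammonium from the soil in roots, and in leaves they are known for moving and retrieving ammonium, much of which is released there by photorespiration. The cell then fixes ammonium into glutamine and glutamate through glutamine synthetase and glutamate synthase. A plant genome holds several such transporter genes, which belong to the AMT1 and AMT2 groups and differ in where they are expressed and how they respond to nitrogen.

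Here 4 assembled tomato sequences carry the Pfam ammonium transporter domain (PF00909), of 44203 sequences that reached 0.5 FPKM in 3 or more of the 9 libraries. FPKM are mapped fragments divided by sequence length and library depth, so levels of different sequences can be compared per length. The annotation gives the domain to 4 sequences in all, and each of the 4 was above this minimum, so none was left out. They are T30_1_TRINITY_DN46563_c0_g1, T30_1_TRINITY_DN9607_c0_g1, T15_3_TRINITY_DN13502_c0_g3 and T30_2_TRINITY_DN14686_c0_g1, called DN46563, DN9607, DN13502 and DN14686 below after the part of the name that differs. They were chosen by their domain and their FPKM, and the family itself was chosen with earlier results of these data known. The p-values of its members are to be read with that choice in mind. DN46563 was picked out with its pattern already known, so its values are a description and no p-value is given for it.

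The samples are leaves of the tomato (Solanum lycopersicum) cultivar Diana, whose plants were about a month old. They were left untreated (0 mM, the control) or were given p-hydroxybenzoic acid (PHBA) at 15 or 30 mM for 2 days, a phenolic acid released by plants that can hold back the growth of neighbouring plants. There were 3 libraries per dose, numbered 1 to 3. RNA of plants of the same treatment was mixed in equal parts, per the labels' protocols, and no source says whether libraries of the same dose are from different plants, so p-values here measure library-to-library spread, and that spread may be technical only.

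Summed FPKM was 349076 to 383347 per library, and the depth relative to control replicate 1 was 0.88 to 1.23. All 25 sequences with the chlorophyll a-b binding or Rubisco small subunit domains, markers of green leaf cells, were above 0 in every library. Their summed FPKM ranged over 4991 to 7699.9 in control, 4238 to 5791 in 15 mM and 1871 to 3001 in 30 mM libraries, and 19 of the 25 fell at 30 mM against the control, as did 1.75% of all sequences. Families that also mark other organs were present at every dose and none of their sequences was listed at 0 throughout: the summed FPKM of 6 pollen Ole e 1 sequences was 28.4 to 45.2, 30.8 to 43 and 25.4 to 38.3 at 0, 15 and 30 mM. For 37 cellulose synthase, fasciclin and dirigent sequences it was 256 to 317, 239 to 357 and 248 to 380, and for 17 sequences of the Casparian strip family 45.6 to 52.3, 43.6 to 67.8 and 48.1 to 66.4. The part of these markers in the changes below was not tested. In whole leaves, fewer cells of a type and less RNA per cell cannot be told apart.

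The annotation describes the 4 sequences almost alike. Each has the ammonium transporter domain, the TIGR00836 ammonium transporter family, the same 3 InterPro entries and 4 Gene Ontology terms for ammonium transport across a membrane, and no pathway entry. DN9607 differs in that it also carries the PRINTS signature of Rhesus blood group proteins (PR00342), the animal relatives of this family, and it is the single sequence of the whole annotation with that signature. None of the sequence names occurs in the RefSeq gene table of tomato (assembly SLM_r2.1), so the 4 cannot be tied to AMT1 or AMT2 genes here, and 2 or more of them could be pieces of 1 gene whose reads were split.

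DN46563, picked out with its pattern known, was lower at each higher dose. The other 3 were higher at 30 mM with FPKM as deposited. For DN14686 this rise depended on the scaling, with a log2 fold change of 0.01 for quantile-normalized values and 0.14 for median ratios. DN46563 had 10.4, 12.3 and 12.99 FPKM in the controls, 9.56, 6.9 and 9.42 FPKM at 15 mM and 3.01, 3.69 and 2.35 FPKM at 30 mM. No library of any dose overlapped with those of another. Its mean FPKM was 11.9 ± 1.34 in the controls, 8.63 ± 1.5 at 15 mM and 3.02 ± 0.67 at 30 mM (SD, n = 3 each), so that the control mean was 3.94 times that at 30 mM. On the log2(FPKM + 1) scale the difference was -1.69 (SE 0.17) for 30 mM against the control, -0.43 (SE 0.17) for 15 mM against the control and -1.26 (SE 0.17) for 30 mM against 15 mM. Among all sequences tested, 0.238% had a more negative change at 30 mM against the control.

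**Figure D1:**
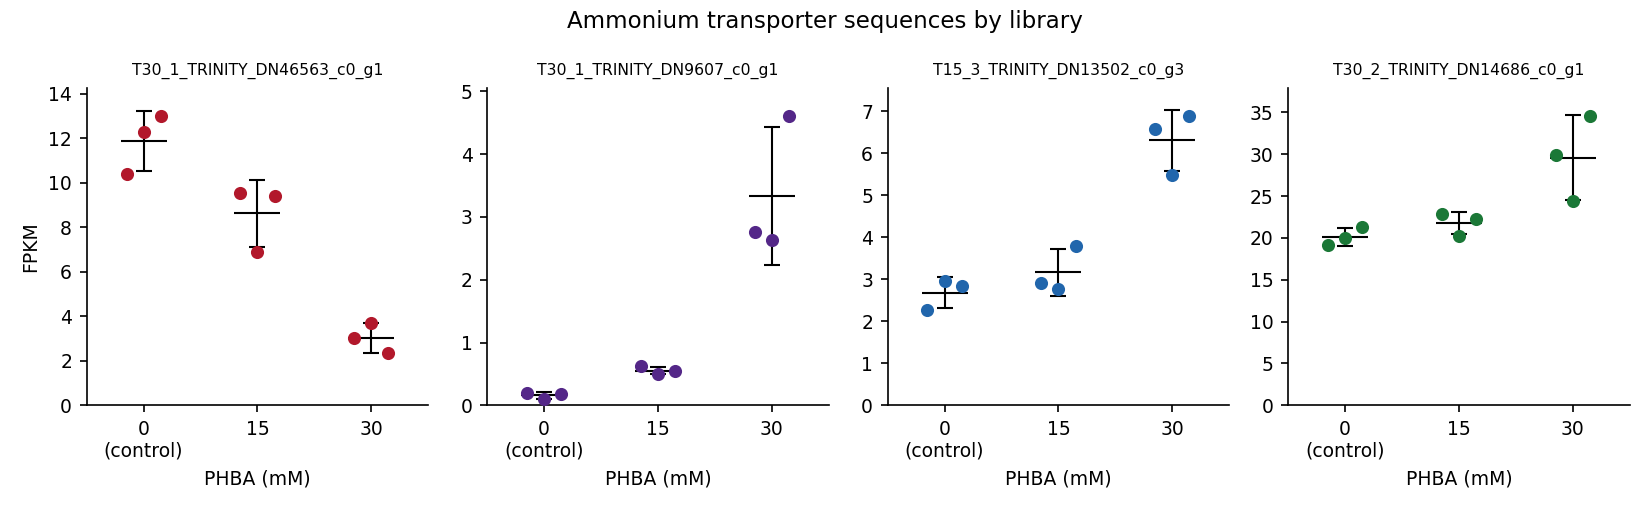
FPKM of each ammonium transporter sequence (vertical axes from 0, 1 scale per panel) at 0, 15 and 30 mM PHBA; points are single libraries and bars the mean ± SD of 3. DN46563 lies at 10.4 to 12.99 FPKM in the controls and 2.35 to 3.69 at 30 mM, while the other 3 sequences are highest at 30 mM.

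DN9607, the member with the Rhesus signature, was very low in untreated leaves and higher at each dose. It had 0.19, 0.1 and 0.18 FPKM in the controls, 0.62, 0.5 and 0.54 FPKM at 15 mM and 2.76, 2.63 and 4.6 FPKM at 30 mM. The 3 doses did not overlap, and replicate 3 was the highest of the 30 mM libraries. The mean FPKM was 0.157 ± 0.0493 in the controls, 0.553 ± 0.0611 at 15 mM and 3.33 ± 1.1 at 30 mM (SD, n = 3 each).

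It passed the minimum of 0.5 FPKM in 6 libraries, all of them treated, with 0.5 FPKM as the lowest value inside it and 0.19 FPKM as the highest outside. Because it could enter only through the treated libraries, its differences from the control are given without a test. They were 1.88 (SE 0.19) at 30 mM and 0.43 (SE 0.19) at 15 mM on the log2(FPKM + 1) scale. The ratio of mean FPKM was 21.3 for 30 mM over the control, but it rests on control values so low that a small change in them moves it far. Between the treated doses, both of which were inside the minimum, DN9607 rose at 30 mM against 15 mM (log2 fold change 1.45, SE 0.19, adjusted p = 0.0063, limma over all 44203 sequences). This call held when any single library was left out (adjusted p = 0.00896 to 0.0292).

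DN13502 rose at the higher dose and was close to the control at the lower one. It had 2.26, 2.96 and 2.84 FPKM in the controls, 2.91, 2.78 and 3.8 FPKM at 15 mM and 6.57, 5.49 and 6.88 FPKM at 30 mM. All 30 mM libraries lay above all others, and the 15 mM libraries overlapped with the controls. Its mean FPKM was 6.31 ± 0.73 at 30 mM and 2.69 ± 0.374 in the controls (SD, n = 3 each), a ratio of 2.35 (log2 fold change 0.99, SE 0.15, adjusted p = 0.00406, limma). This call held without any single library (adjusted p = 0.00436 to 0.0236). Against 15 mM, where the mean FPKM was 3.16 ± 0.555, it rose as well (log2 fold change 0.82, SE 0.15, adjusted p = 0.0238). It did not pass, with an adjusted p = 0.0975, 0.0666, 0.0826 or 0.0839, when 15 mM replicate 1, 15 mM replicate 2, 30 mM replicate 1 or 30 mM replicate 3 was left out. The change at 15 mM against the control was not called (log2 fold change 0.17, SE 0.15, 95% interval -0.17 to 0.51, adjusted p = 0.696, limma), and it turned to -0.03 with quantile-normalized values and to -0.04 with libraries rescaled by median ratios.

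DN14686 was the most abundant of the 4 and had the smallest log2 change at 30 mM. It had 19.2, 19.93 and 21.29 FPKM in the controls, 22.83, 20.26 and 22.28 FPKM at 15 mM and 29.87, 24.41 and 34.51 FPKM at 30 mM. The 30 mM libraries lay above all others but were further apart from each other, and the 15 mM libraries overlapped with the controls. The mean FPKM was 29.6 ± 5.06 at 30 mM and 20.1 ± 1.06 in the controls (SD, n = 3 each), a ratio of 1.47 (log2 fold change 0.52, SE 0.14, adjusted p = 0.0416, limma). This call depended on how the libraries were scaled: the log2 fold change was 0.01 with quantile-normalized values (adjusted p = 0.98), 0.14 with libraries rescaled by median ratios (adjusted p = 0.68) and 0.36 when the 4 most abundant sequences of the table were removed (adjusted p = 0.17). It did not pass either when control replicate 1 (adjusted p = 0.145), 2 (0.127) or 3 (0.0858), 15 mM replicate 1 (0.0745) or 3 (0.0518) or 30 mM replicate 1 (0.111) or 3 (0.0983) was left out.

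DN14686 averaged 21.8 ± 1.35 FPKM at 15 mM (SD, n = 3). Neither of its other differences was called: at 30 mM against 15 mM it was 0.41 on the log2 scale (SE 0.14, 95% interval 0.10 to 0.72, adjusted p = 0.164, limma). At 15 mM against the control it was 0.11 (SE 0.14, 95% interval -0.20 to 0.42, adjusted p = 0.794), and the sign turned under 3 scalings (-0.12 with quantile-normalized values, -0.16 with median ratios and -0.04 when the 4 most abundant sequences were removed).

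**Figure D2:**
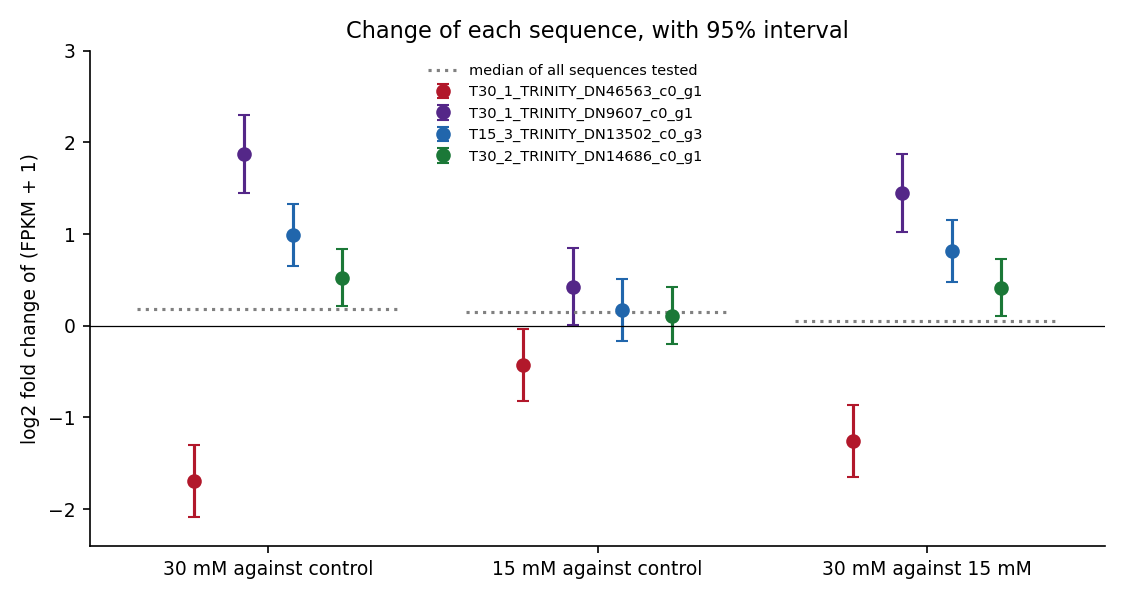
Log2 fold change of (FPKM + 1) of each sequence in the 3 comparisons. Bars are 95% intervals from limma and dotted lines the median of all sequences tested. The bars of DN46563, and those of DN9607 against the control, are a description and no test is read from them. At 30 mM against the control DN46563 is at -1.69 and the others are at 0.52 to 1.88, and at 15 mM against the control the 4 lie between -0.43 and 0.43.

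Set side by side, the members moved in opposite directions at 30 mM. Against the control limma called all 4, 3 higher and 1 lower, where 11.8% of all 44203 sequences were called, 10% higher and 1.75% lower. Of the 13634 annotated sequences tested, which include the 4, 2876 were called higher and 402 lower. The groups did not overlap in any of the 4, as in 31.9% of all sequences. These counts include DN46563 and DN9607, whose choice or entry depended on these values, so they are a description. Under each of these 3 other scalings the count was 2 higher and 1 lower, with DN14686 no longer called. The balance over all sequences moved with the scaling too: 5.62% were called higher and 5.45% lower with quantile-normalized values, 6.41% and 5.22% with median ratios, and 10.3% and 3.35% when the 4 most abundant sequences were removed.

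At 15 mM against the control limma called none of the 4, where 0.0995% of all sequences were called, and neither DN13502 nor DN14686 had an unadjusted p under 0.05, which 10.4% of all sequences had. The groups did not overlap in DN46563 and DN9607, as in 17.1% of all sequences. At 30 mM against 15 mM 3 of the 4 were called, 2 higher and 1 lower, where 3.1% of all sequences were called, 2.41% higher and 0.69% lower. The 1 lower is DN46563, for which no test is read, so this count is a description. Of the 13634 annotated sequences tested, 656 were called higher and 157 lower. Over all sequences this balance was 2.5% higher and 2.55% lower with quantile-normalized values, 2.84% and 1.99% with median ratios, and 4.04% and 1.55% when the 4 most abundant were removed. None of the 4 overlapped between these doses, as in 19.5% of all sequences.

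The median log2 fold change of the 4 was 0.75 at 30 mM against the control, beside 0.18 for all sequences tested and 0.30 for the annotated ones. It was 0.31 with quantile-normalized values, 0.41 with median ratios and 0.61 when the 4 most abundant sequences were removed. The medians of all sequences were then -0.01, -0.0039 and 0.10. The median of the 4 includes DN46563 and DN9607, so it is a description. With FPKM as deposited, the typical sequence, at 0.18, lay above 0 on this scale. With quantile-normalized values it lay at -0.01, but that method gives all libraries the same distribution and so brings the median near 0. Relative to that median of 0.18, the members' changes were -1.87 for DN46563, 1.69 for DN9607, 0.81 for DN13502 and 0.34 for DN14686. The size of the changes depended on the constant added before the logarithm: with 0.1 in place of 1 the log2 fold change of DN9607 at 30 mM against the control was 3.71, and with 5 it was 0.68. With 5, that of DN46563 was -1.08 and that of DN13502 was 0.56, which was still called (adjusted p = 0.0154, limma).

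With FPKM as deposited and a constant of 1, the lower dose went a minor part of the way in all 4 sequences. On the log2(FPKM + 1) scale the 15 mM mean lay at 25.4% of the distance between the control and the 30 mM mean for DN46563, 22.7% for DN9607, 20.7% for DN14686 and 17.4% for DN13502, with the scalings that turned the sign of the last 2 at 15 mM given above. These shares depended on the constant and the scaling. With a constant of 0.1, the log2 fold change of DN9607 against the control was 1.36 at 15 mM and 3.71 at 30 mM. With median ratios, that of DN46563 was -0.69 at 15 mM and -2.02 at 30 mM. In FPKM, the mean of DN46563 differed from the control by -3.27 at 15 mM and by -8.88 at 30 mM.

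The order of the 4 levels changed with the highest dose. In every control and every 15 mM library DN14686 was highest, DN46563 came next, then DN13502 and last DN9607. In every 30 mM library DN14686 was still highest and DN13502 came next. The last places did not separate at 30 mM: DN46563 averaged 3.02 ± 0.67 FPKM and DN9607 3.33 ± 1.1 FPKM, with DN46563 above DN9607 in replicates 1 and 2 and below it in replicate 3.

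**Figure D3:**
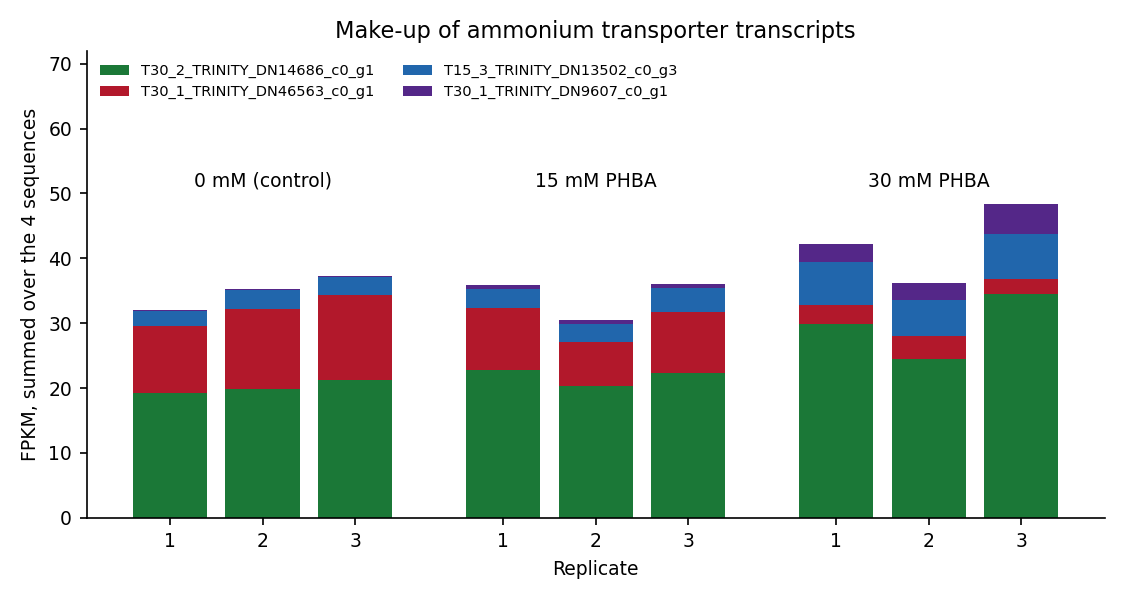
FPKM of the 4 ammonium transporter sequences stacked per library, at 0, 15 and 30 mM PHBA (replicates 1 to 3). The bars reach 32.05 to 37.3 for control, 30.44 to 36.04 for 15 mM and 36.22 to 48.34 for 30 mM libraries, and the DN46563 part shrinks from dose to dose.

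The summed FPKM of the 4 was 34.9 ± 2.65 in the controls, 34.1 ± 3.2 at 15 mM and 42.3 ± 6.06 at 30 mM (SD, n = 3 each), and the 30 mM libraries overlapped with the controls. The make-up of this sum shifted more than its size. DN46563 held 34 ± 1.38% of it in the controls, 25.1 ± 2.15% at 15 mM and 7.39 ± 2.67% at 30 mM. DN14686 held 57.8 ± 1.83%, 64 ± 2.4% and 69.8 ± 2.15% at 0, 15 and 30 mM. DN13502 held 7.68 ± 0.671%, 9.26 ± 1.23% and 15 ± 0.683%, and DN9607 held 0.453 ± 0.157%, 1.62 ± 0.115% and 7.77 ± 1.55%.

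A ratio of members within a library is unchanged when all values of that library are multiplied by the same factor, as with median ratios, but quantile normalization can alter it. DN46563 over DN14686, the 2 most abundant in untreated leaves, had a FPKM ratio of 0.542, 0.617 and 0.61 in the controls, 0.419, 0.341 and 0.423 at 15 mM and 0.101, 0.151 and 0.0681 at 30 mM. The 3 doses did not overlap. The FPKM ratio of DN46563 over DN13502 was 4.44 ± 0.25 in the controls, 2.75 ± 0.465 at 15 mM and 0.491 ± 0.168 at 30 mM (SD, n = 3 each), so that DN46563 was the more abundant of the pair at 0 and 15 mM and the less abundant at 30 mM.

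Pooled over the 3 doses, the SD within doses on the log2(FPKM + 1) scale was 0.16 for DN13502, 0.21 for DN46563, 0.21 for DN9607 and 0.15 for DN14686, beside a median of 0.29 for all sequences kept. At 30 mM alone DN9607 had an SD of 0.35, above the median of 0.27 for all sequences at that dose, and its values under 1 FPKM in the other libraries are compressed by the added constant of 1. Relative to the mean FPKM, the spread was largest for DN9607 at 30 mM, where the coefficient of variation was 33.1%. It was smallest for DN14686 in the controls, at 5.27%. By mean FPKM over the 9 libraries DN14686 stood at percentile 98.4 of all sequences kept, DN46563 at 94, DN13502 at 87.1 and DN9607 at 62.7.

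**Figure D4:**
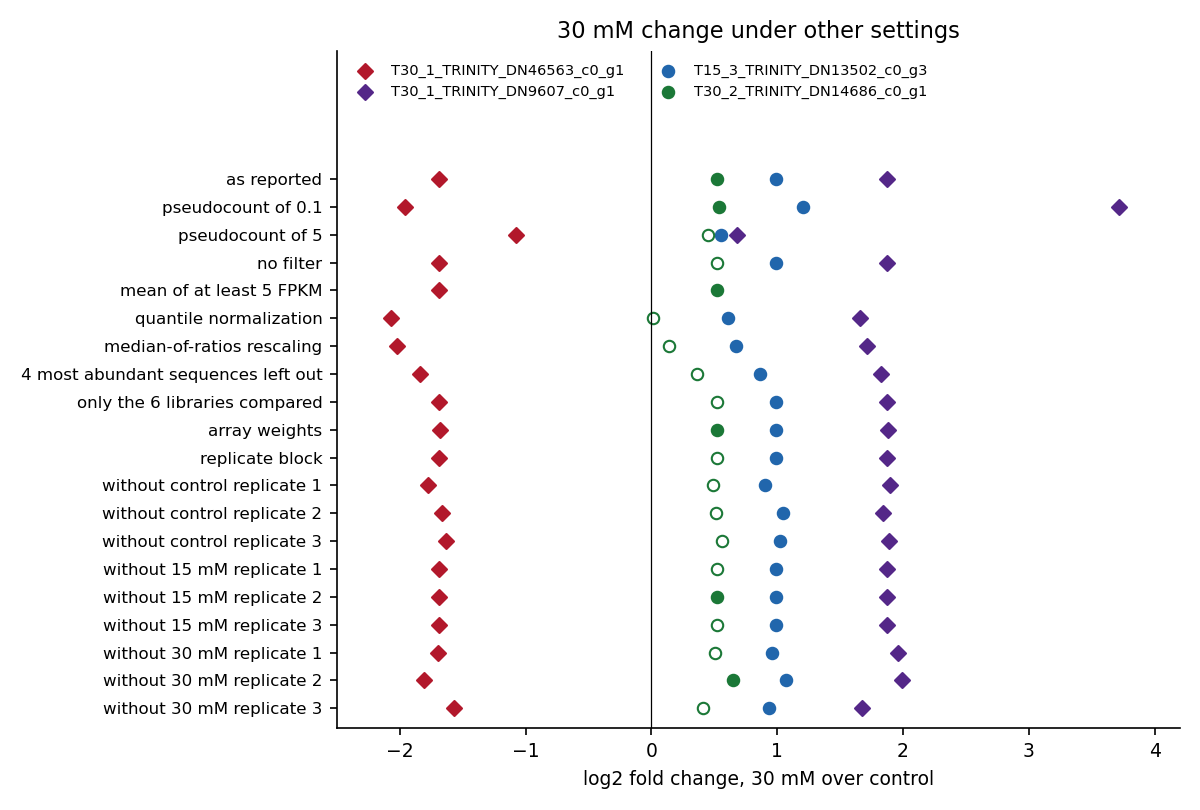
Log2 fold change at 30 mM against the control of each sequence (horizontal axis) under each processing alternative and with single libraries left out (rows). Filled circles were called by limma at an adjusted p under 0.05 and open circles were not, and diamonds mark DN46563 and DN9607, for which no test is read here; DN46563 lies between -2.07 and -1.08 throughout, and DN14686 between 0.01 and 0.65.

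The annotated sequences most like DN46563 across the 9 libraries were sought among 10752 with a mean of at least 1 FPKM. By Pearson's r of log2(FPKM + 1) they were TCK_2_TRINITY_DN10446_c0_g1, a pentatricopeptide repeat sequence with a DYW domain (r = 0.995), T15_3_TRINITY_DN2260_c0_g3, a cytochrome P450 (r = 0.994), and T30_3_TRINITY_DN3978_c1_g1, of the uncharacterised family DUF1517 (r = 0.99). Next came the light-harvesting antenna sequences T30_2_TRINITY_DN134_c0_g1 and TCK_3_TRINITY_DN847_c0_g1, of the chlorophyll a-b binding family (r = 0.988 in both). The cytochrome P450 averaged 14 ± 0.785 FPKM in the controls, 10.8 ± 0.968 at 15 mM and 4.62 ± 0.813 at 30 mM, close to the levels of DN46563 itself. An r above 0.9 was common, with 273 of the 10752 sequences for DN46563 and 846 for DN9607, and libraries of a dose share that dose, so the points are not independent.

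The sequences most like DN9607 were T30_2_TRINITY_DN82426_c0_g1, with a RING finger, a domain of ubiquitin ligases (r = 0.996), and T30_1_TRINITY_DN5330_c0_g2, with a BTB/POZ domain, which serves protein binding (r = 0.995). They were followed by T30_2_TRINITY_DN45808_c0_g1, of the family DUF716 (r = 0.994), the leucine-rich repeat sequence T30_3_TRINITY_DN3934_c0_g2 (r = 0.994) and TCK_1_TRINITY_DN3706_c0_g1, of the family DUF966 (r = 0.992). The RING finger sequence had the same low start as DN9607, with 0.22 ± 0.0819 FPKM in the controls, 0.88 ± 0.15 at 15 mM and 9.48 ± 3.59 at 30 mM.

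Around the transporters, 72 sequences of 10 nitrogen lists were tested, all of them annotated. Of the 13634 annotated sequences tested, limma called 2876 higher and 402 lower at 30 mM against the control. These are larger shares than the 10% and 1.75% of all sequences given here and below. Of the 72, limma called 13 higher and 4 lower at 30 mM against the control and 55 did not pass, where 10% of all sequences were called higher and 1.75% lower. Of these calls, 2 higher (T30_1_TRINITY_DN8664_c0_g1 and T30_1_TRINITY_DN4221_c0_g1) and 1 lower (T15_3_TRINITY_DN48412_c0_g1, named after its values were seen) belong to sequences that passed the minimum of 0.5 FPKM only through the group where they are high, so no test is read for them, which leaves 11 higher and 3 lower. Under the other scalings the counts over all 72 were 8 higher and 18 lower with quantile-normalized values and also with median ratios, and 14 higher and 15 lower when the 4 most abundant sequences were removed, beside the shares of all sequences given above. In the 15 mM libraries limma called none of the 72 against the control, where 0.0995% of all sequences were called, and 14 of the 72 had an unadjusted p under 0.05, beside 10.4% of all. The balance of calls in this set at 30 mM thus depended on the scaling. The sign of each transporter's log2 fold change at 30 mM against the control held under these 3 scalings. A sign is another measure than a count of calls, and DN14686 was not called under any of them.

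Glutamine synthetase, which fixes ammonium into glutamine, had 2 of 4 members higher and none lower at 30 mM against the control, beside 10% and 1.75% of all sequences. With quantile-normalized values none was called, with median ratios 1 was called, lower, and with the 4 most abundant sequences removed 2 were called, both higher. The abundant T15_1_TRINITY_DN6738_c0_g1 had 140 ± 20.4 FPKM at 30 mM and 173 ± 33.5 in the controls and did not pass (adjusted p = 0.421, limma; with median ratios it was called at -0.70 on the log2 scale, adjusted p = 0.0159). TCK_1_TRINITY_DN6784_c0_g1 rose to 33.9 ± 9.18 FPKM at 30 mM, against 14.1 ± 1.53 in the controls (adjusted p = 0.0153), which did not pass when control replicate 1 (0.0501) or 2 (0.0638) or 30 mM replicate 1 (0.0586) was left out, nor with quantile-normalized values (0.0684) or median ratios (0.0549). The other one called higher, T15_1_TRINITY_DN3686_c0_g1, had 2.2 ± 0.265 FPKM at 30 mM and 1.07 ± 0.161 in the controls. It carries an amidohydrolase domain beside the catalytic domain. The beta-Grasp domain listed for the 2 above is not listed for it, and whether it fixes ammonium is not known here. Of 2 glutamate synthase sequences, the abundant T30_3_TRINITY_DN3994_c0_g1 had 30.9 ± 1.25 FPKM at 30 mM and 34.7 ± 3.22 in the controls. It did not pass (log2 fold change -0.16, SE 0.19, adjusted p = 0.664, limma). With quantile-normalized values and with median ratios 1 of the 2 was called lower, beside 5.45% and 5.22% of all sequences. T30_1_TRINITY_DN8664_c0_g1 had 1.52 ± 0.547 FPKM at 30 mM and 0.22 ± 0.03 in the controls, and since it reached the minimum of 0.5 FPKM at 30 mM alone no test is read for it. Glutamate dehydrogenase, which can release or bind ammonium, had none of 5 called at 30 mM, with 2 under an unadjusted p of 0.05, beside 26.1% of all sequences.

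The nitrate/peptide transporter family (NPF), which imports nitrate, peptides and hormones, also had members called in both directions. So had the annotated sequences as a whole, with 2876 of 13634 called higher and 402 lower at 30 mM against the control. Of 39 members 5 were called higher and 4 lower at 30 mM against the control, beside 10% and 1.75% of all sequences, and the 4 include T15_3_TRINITY_DN48412_c0_g1, for which no test is read. The counts were 3 and 12 for quantile-normalized values, 4 and 11 for median ratios and 5 and 10 when the 4 most abundant sequences were removed. TCK_2_TRINITY_DN5804_c0_g1 rose to 25.3 ± 5.12 FPKM at 30 mM, against 2.22 ± 0.168 in the controls (log2 fold change 3.01, SE 0.21, adjusted p = 1.75e-04, limma). TCK_3_TRINITY_DN340_c0_g1 fell to 4.15 ± 0.935 FPKM, against 12 ± 0.78 in the controls (log2 fold change -1.35, SE 0.18, adjusted p = 0.00235).

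Enzymes that release ammonium differed by list. Phenylalanine ammonia-lyase, the entry to phenylpropanoid synthesis, had 4 sequences. One of them, T30_1_TRINITY_DN4221_c0_g1, had 2.84 ± 1.78 FPKM at 30 mM and 0.14 ± 0.14 in the controls (SD, n = 3 each), and it reached the minimum at 30 mM alone, so no test is read for it. Of the other 3, 1 was called at 30 mM against the control, where 10% of all sequences were called higher. The abundant T15_1_TRINITY_DN2607_c0_g1 rose to 108 ± 20.8 FPKM, against 50.6 ± 9.12 in the controls (adjusted p = 0.0155, limma), which did not pass when control replicate 1 (0.0623) or 3 (0.0588) or 30 mM replicate 1 (0.0514) was left out, nor with median ratios (0.116). The glycine cleavage system, which releases ammonium in photorespiration, had none of 7 called with FPKM as deposited. Of the 7, 4 had an unadjusted p under 0.05 (limma), beside 26.1% of all sequences. Among these 4, 1 was higher (log2 fold change 0.70) and reached the minimum in treated libraries alone, so no test is read for it, and the others were lower. After each of the 3 other scalings 4 were called lower. Beside them, 5.45% of all sequences were called lower with quantile-normalized values, 5.22% with median ratios and 3.35% with the 4 most abundant removed. The asparaginase and urease list had none of 3 called, with 1 under an unadjusted p of 0.05, beside 26.1% of all sequences.

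Of 5 sequences with the nitrate or nitrite reductase domains, T30_1_TRINITY_DN729_c0_g2 rose to 3.9 ± 0.338 FPKM at 30 mM, against 1.2 ± 0.171 in the controls (adjusted p = 0.00211, limma), and the pathway annotation gives it as a sulfite reductase. The asparagine synthetase T15_1_TRINITY_DN16924_c0_g1 rose to 3.18 ± 1.12 FPKM, against 1.15 ± 0.0751 (adjusted p = 0.0151), which did not pass when control replicate 1 (0.0578), 2 (0.0508) or 3 (0.0519) was left out. The 1 sequence of the nitrogen sensor PII, T30_2_TRINITY_DN21656_c0_g1, had 17.3 ± 2.49 FPKM at 30 mM and 10.8 ± 0.971 in the controls (adjusted p = 0.0425). It did not pass with quantile-normalized values (adjusted p = 0.402) or median ratios (0.146), nor when any control or 30 mM library or 15 mM replicate 1 was left out (0.0519 to 0.151).

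**Figure D5:**
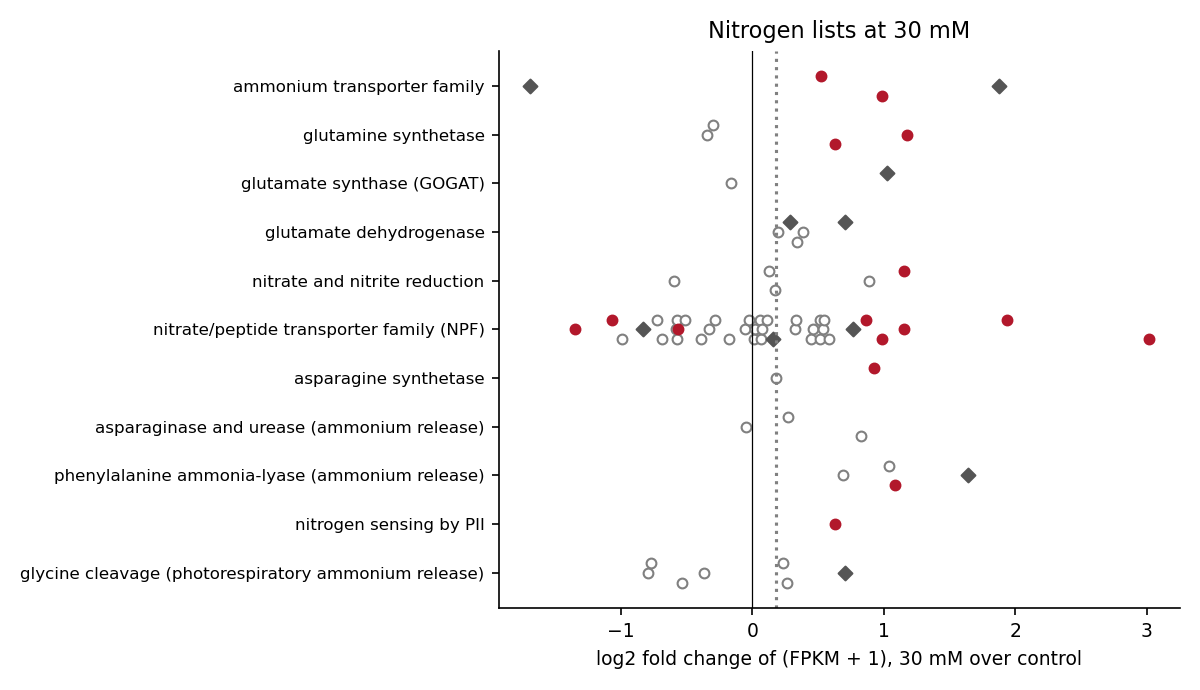
Log2 fold change of (FPKM + 1) at 30 mM against the control (horizontal axis) of each tested sequence of the ammonium transporter family and of 10 other nitrogen lists (rows). Red points were called by limma at an adjusted p under 0.05, open points were not, grey diamonds are sequences for which no test is read (DN46563, and those with no library of the group with the lower level at the minimum or too few to pass without the other group), and the dotted line is the median of all sequences at 0.18; the ammonium transporters reach from -1.69 to 1.88.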

How the data were processed

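Leaf RNA of 9 libraries was sequenced. The authors deposited FPKM values with 2 decimals for 82125 sequences, used as deposited; the deposited annotation gives words only (14831 sequences, 14720 of them in the FPKM table). Per the file headers, sequence names carry Trinity and the name of 1 library. Trimmomatic 0.36, FastQC 0.11.5, DESeq and RSEM are listed, without a role, in the submitters' processing notes; of the mapper, the assembler's version and the merging nothing is stated there. Read counts are not used here, so no counting interval can be given. Relative depth is the most frequent ratio to control replicate 1 among sequences above 0 in at most 4 libraries, with at least 0.3 FPKM in both.

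With limma 3.58.1 (R 4.3.3), log2(FPKM + 1) of the 44203 sequences that reached 0.5 FPKM in 3 or more libraries was fitted for 3 dose groups in 1 model (6 residual degrees of freedom, empirical Bayes with trend). Two-sided p-values were adjusted with Benjamini-Hochberg over all of them, and calls are at an adjusted p under 0.05. SD are over 3 libraries. The fit was also run on simulated data, drawn independently for each sequence and library without a scaling shift. That run therefore cannot show how calls depend on the scaling or on the kind of replicate.

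The family, the nitrogen lists (by Pfam domain) and the tests were chosen with earlier results of these data known. Named by rule were the 4 members, the most abundant member of each nitrogen list and up to 3 called ones (printed in part), and the 5 annotated sequences with the highest r to the members with the most negative and the most positive change. Other scalings were quantile normalization of log2 values, median-of-ratios rescaling of FPKM, and removal of the 4 most abundant sequences with rescaling. There were 10 alternative settings and 9 fits that each left out 1 library.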

Additional observations from a re-analysis of the deposited data

How the results depend on the processing

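The direction at 30 mM against the control and at 30 mM against 15 mM held for each of the 4 sequences in every alternative in which it was tested. A mean of at least 5 FPKM left 2 of them, DN46563 and DN14686. At 30 mM against the control 2 were called, beside 2380 of all 4548 sequences at this setting. Against 15 mM 1 was called, beside 1010 of 4548. Both counts include DN46563, for which no test is read. The 30 mM rise of DN14686 was not called with a constant of 5 (log2 fold change 0.45), without a filter (0.52), with quantile-normalized values (0.0098), median ratios (0.14) or the 4 most abundant sequences removed (0.36), in the 6 libraries compared alone (0.52) or with the replicate block (0.52, adjusted p = 0.0603; 0.0181 to 0.98 over its 19 alternatives). The rise of DN13502 at 30 mM against 15 mM was not called in the 6 libraries alone or with the replicate block (0.82 in both; adjusted p = 0.0858 and 0.0505, and 0.0122 to 0.0975 over its 18 alternatives). At 15 mM the sign of DN13502 turned with quantile-normalized values (-0.0292) and median ratios (-0.0411), and that of DN14686 with both (-0.12 and -0.16) and with the 4 most abundant removed (-0.0405). The cause of these changes was not tested.

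Leaving out 1 library gave 3 to 4 members called at 30 mM against the control, 2 to 3 at 30 mM against 15 mM and 0 at 15 mM against the control. These counts include DN46563 and, against the control, DN9607, for which no test is read. At 30 mM against the control the log2 fold changes were -1.81 to -1.57 for DN46563, 1.68 to 1.99 for DN9607, 0.90 to 1.07 for DN13502 and 0.41 to 0.65 for DN14686. At 30 mM against 15 mM they were -1.40 to -1.14, 1.25 to 1.56, 0.75 to 0.92 and 0.30 to 0.54, and at 15 mM against the control -0.52 to -0.29, 0.39 to 0.45, 0.07 to 0.24 and 0.07 to 0.16.

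Of all sequences, 5200 were called at 30 mM against the control, 44 at 15 mM and 1371 at 30 mM against 15 mM. In the first there were 3336 without a filter and 2380 with a mean of at least 5 FPKM. At 15 mM there were 102 with a constant of 0.1, 5 with 5, 6 without a filter, 213 with a mean of at least 5 FPKM, 76 for quantile-normalized values, 71 for median ratios, 76 without the 4 most abundant, 14 in the 6 libraries, 793 with array weights and 4 with the replicate block. At 30 mM against 15 mM the counts were 711 without a filter, 2236 and 2135 under the first 2 of these scalings, 2472 without the 4 most abundant, 403 in the 6 libraries and 851 with the replicate block. Leaving out 1 library gave 2350 to 5773, 5 to 135 and 518 to 1572. The 2350 came without control replicate 1 (2473, 3159 and 2872 with control replicate 2, control replicate 3 or 30 mM replicate 1 left out). For 15 mM the counts were 6, 5 and 11 when control replicate 1, 2 or 3 was dropped, 9, 135 and 6 for the 15 mM replicates and 11 for 30 mM replicate 1. For 30 mM against 15 mM they were 897 when control replicate 1 was dropped, 518, 820 and 875 for the 15 mM replicates and 607 and 576 for 30 mM replicate 1 or 3.

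No pairing of libraries by replicate number was seen. Deviations from the dose means of same-numbered libraries had correlations of -0.01 to 0.03 across sequences, beside -0.03 to 0.03 for different numbers. A library correlated best with its own number in 8 of 18 cases. This check is weak and cannot settle whether the numbers pair libraries. Among the nitrogen sequences, the sign of T30_3_TRINITY_DN1019_c0_g1 at 30 mM (0.13) turned with quantile-normalized values (-0.37), median ratios (-0.26), the 4 most abundant removed (-0.0348) and, in a range of -0.0362 to 0.3736 over fits that left out 1 library, 30 mM replicate 1 left out, and that of T15_1_TRINITY_DN1268_c0_g1 (0.20) with the first 2 (-0.27 and -0.15). Values under about 0.2 FPKM, as those of DN9607 in the controls, limit every fold change taken against them.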

Other observations

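The 3 ammonium transporter sequences that were higher at 30 mM did not keep their FPKM proportions to each other. These ratios are unchanged by a factor common to all values of a library, but quantile normalization can alter them. DN13502 over DN14686 had a FPKM ratio of 0.118, 0.149 and 0.133 in the controls, 0.127, 0.137 and 0.171 at 15 mM and 0.22, 0.225 and 0.199 at 30 mM. The 30 mM libraries lay above all others. DN9607 over DN13502 had 0.0841, 0.0338 and 0.0634 in the controls, 0.213, 0.18 and 0.142 at 15 mM and 0.42, 0.479 and 0.669 at 30 mM, with no overlap between doses. The DN46563 level came down to that of DN9607: the FPKM ratio of DN46563 over DN9607 was 1.09, 1.4 and 0.511 at 30 mM, against 54.7, 123 and 72.2 in the controls. These ratios were chosen after the values were seen and were not tested.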
